A study of Mus musculus with 10 samples.

Results

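Endothelial genes were followed in regenerating mouse muscle after deletion of the microRNA miR-501. The genes were chosen by name: *Pecam1*, *Cdh5*, *Cldn5*, *Kdr*, *Flt1*, *Tek*, *Tie1*, *Vwf*, *Emcn* and *Egfl7*. They are 10 of the 25700 genes listed in each mouse, and all 10 were among the 14410 genes with enough counts to be tested. The tissue was the tibialis anterior (TA) of 12-week-old male C57BL/6 mice, taken 6 days after cardiotoxin, a snake venom toxin that destroys muscle fibers and starts regeneration, was injected into the muscle. The 2 groups were 5 Pax7Cre mice, labelled wild type by genotype, and 5 Pax7CremiR-501fl/Y mice (miR-501KO), labelled miR-501 -/-. Both groups carried Pax7Cre, in which Cre recombinase is driven by *Pax7*, a gene of muscle stem cells, so no endothelial promoter drove the deletion. No uninjured muscle was among the samples, and miR-501 itself was not among the counted genes, so the deletion could not be checked in these libraries.

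Endothelial cells line all blood vessels. Their junctions are held by adhesion proteins, vascular endothelial growth factors (VEGF) act on them through receptor kinases to drive sprouting, and angiopoietins act through a further pair of receptors to keep vessels stable or to loosen them. After a muscle injury capillaries are damaged and rebuilt alongside the fibers, and endothelial cells lie close to muscle stem cells in their niche. Total counts ran from 18609222 to 24753258 per mouse, and values below are CPM, the counts of a gene per 1000000 counts of its library, after scaling of the libraries by trimmed mean of M-values (TMM). In whole muscle, fewer endothelial cells and less RNA of a gene per endothelial cell cannot be told apart.

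The sequences bear on where miR-501 could pair with these genes. The RefSeq table (GRCm38.p6) places mature miR-501-3p at chrX:7241270-7241291 on the minus strand. Its seed, bases 2 to 8, is in capitals in the first line. A match to this seed (GGTGCAT, sense strand) was looked for in every 3′ untranslated region of the GENCODE M21 transcripts. It was found in 1 of the 10 genes, *Cdh5*, beside 8.21% of the 14119 tested genes with such a region (1159 genes). The site lay at base 1450 of the 1516-base 3′ untranslated region of the longer *Cdh5* transcript, at chr8:104144445-104144451 on the plus strand in the last exon. It is in capitals in the second line, within chr8:104144434-104144462.
mmu-miR-501-3p: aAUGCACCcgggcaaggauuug
Cdh5 site: ttagtcaccctGGTGCATgagatgtactg
A match is a description of these letters and not a measured site of repression. *Cdh5* was 237 ± 22.4 CPM in Pax7Cre and 227 ± 23.9 CPM in miR-501KO mice (SD, n = 5 each), and its difference is given with the others below.

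No endothelial gene passed the test between the genotypes. With edgeR's quasi-likelihood test, 0 of the 10 had an adjusted p under 0.05, beside 0% of all 14410 genes, and 0 had an unadjusted p under 0.05, beside 1.05% of all genes (151). DESeq2's Wald test and edgeR's likelihood ratio test also gave 0 of 10 at both thresholds. The unadjusted p-values of the 10 genes in edgeR's test ran from 0.346 for *Tek* to 0.936 for *Pecam1*. In 0 of the 10 genes were the CPM values of the genotypes free of overlap, beside 0.139% of all genes (20). Of the log2 fold changes, 9 of 10 lay below 0, where miR-501KO is lower, beside 52.1% of all genes. Without Pax7Cre mouse 2, 5 of 10 lay below 0, and without each of the other mice in turn 7 to 10 did. Their median was -0.06, beside -0.00 over all genes, and without Pax7Cre mouse 2 it was 0.00, without Pax7Cre mouse 4 -0.14. The intervals bound what could have been missed: the 95% limits of the fold reached down to 0.711 in *Flt1* and up to 1.179 in *Vwf*, and all 10 upper limits lay under 1.2.

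**Figure D1:**
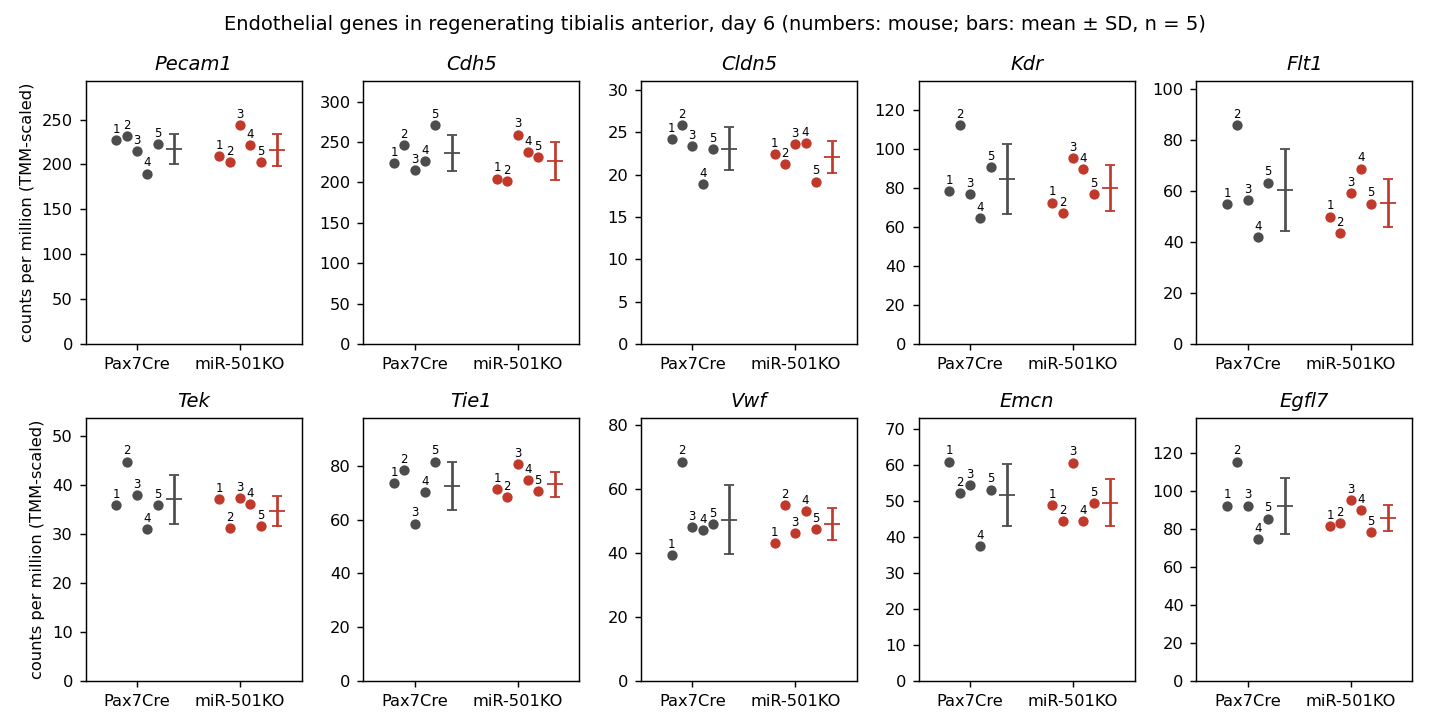
TMM-scaled CPM of the 10 endothelial genes, one panel per gene with the axis from 0. Points are single mice with their number, Pax7Cre in grey and miR-501KO in red, and bars are the mean ± SD of 5 mice. The genotypes overlap in every panel, and Pax7Cre mouse 2 is the highest mouse in 6 panels.

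The junction genes had coefficients of variation over the 10 mice of 7.37% for *Pecam1*, 9.70% for *Cdh5* and 9.76% for *Cldn5*, beside a median of 9.85% in tested genes of the same CPM range. *Pecam1* (chr11:106654217-106750628, minus strand) encodes CD31, an adhesion receptor at the contacts between endothelial cells that leukocytes and platelets also carry. It stood at 227, 231, 215, 189.9 and 223 CPM in Pax7Cre mice 1 to 5, and at 209.5, 202, 244, 222 and 203 CPM in miR-501KO mice 1 to 5. One miR-501KO mouse, mouse 3, lay above all Pax7Cre mice and the others lay within their range. The log2 fold change was -0.01 (SE 0.09, 95% interval -0.19 to 0.18, adjusted p = 1.00 in edgeR's test).

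*Cdh5* (chr8:104101625-104144511, plus strand) encodes VE-cadherin, the cadherin of the endothelial adherens junction. The Pax7Cre mice stood at 224, 246, 215, 227 and 271 CPM, and the miR-501KO mice at 205, 202, 259, 237 and 231 CPM. MiR-501KO mice 1 and 2 lay below all Pax7Cre mice, and the remaining values overlapped. The log2 fold change was -0.06 (95% interval -0.27 to 0.15, adjusted p = 1.00 in edgeR's test). *Cldn5* (chr16:18776847-18778262, plus strand), a single-exon gene, encodes claudin-5 of the tight junction. It stood at 24.2, 25.9, 23.4, 18.9 and 23.0 CPM in Pax7Cre and at 22.4, 21.2, 23.6, 23.7 and 19.2 CPM in miR-501KO mice. All miR-501KO values fell between the lowest and highest Pax7Cre mouse, and the log2 fold change was -0.07 (95% interval -0.27 to 0.14).

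The VEGF receptors varied most between mice. *Kdr* (chr5:75932827-75978458, minus strand) encodes VEGFR2, the main signalling receptor for VEGF-A. It stood at 78.5, 112, 77.0, 64.5 and 90.8 CPM in Pax7Cre mice 1 to 5, and at 72.5, 67.2, 95.1, 89.5 and 76.7 CPM in miR-501KO mice 1 to 5. Pax7Cre mice held both the highest value, in mouse 2, and the lowest, in mouse 4. The log2 fold change was -0.08 (SE 0.14, 95% interval -0.38 to 0.23). *Flt1* (chr5:147561604-147726011, minus strand) encodes VEGFR1, which binds VEGF-A tightly and, in a soluble form, keeps it from other receptors. It stood at 55.0, 86.0, 56.5, 42.1 and 63.3 CPM in Pax7Cre and at 50.03, 43.7, 59.2, 68.8 and 55.1 CPM in miR-501KO mice. The same Pax7Cre mice were at both ends, and the log2 fold change was -0.13 (SE 0.17, 95% interval -0.49 to 0.24). The coefficient of variation over the 10 mice was 17.7% for *Kdr* and 22.04% for *Flt1*, beside 7.37% for *Pecam1*.

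The angiopoietin receptors showed no difference past the test either. *Tek* (chr4:94739289-94874976, plus strand) encodes TIE2, the receptor that binds angiopoietins. It stood at 35.9, 44.9, 37.9, 31.1 and 35.95 CPM in Pax7Cre and at 37.1, 31.3, 37.4, 36.1 and 31.7 CPM in miR-501KO mice, with every miR-501KO mouse inside the Pax7Cre range. Its log2 fold change was -0.10 (95% interval -0.31 to 0.12). *Tie1* (chr4:118471191-118490061, minus strand) encodes a partner of TIE2 with no well-established ligand of its own. It stood at 73.8, 78.4, 58.6, 70.2 and 81.6 CPM in Pax7Cre and at 71.3, 68.4, 80.6, 74.8 and 70.6 CPM in miR-501KO mice. *Tie1* was the single gene with a higher mean in miR-501KO mice, at a log2 fold change of 0.01 (95% interval -0.18 to 0.21), and on library totals alone (no TMM factors), without Pax7Cre mouse 3 or without miR-501KO mouse 3 its sign was negative.

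*Vwf*, *Emcn* and *Egfl7* encode secreted or surface proteins of the vessel wall. *Vwf* (chr6:125546774-125686679, plus strand) encodes von Willebrand factor, which is stored in endothelial granules and in platelets and tethers platelets to injured vessels. It stood at 39.3, 68.5, 48.2, 47.1 and 49.0 CPM in Pax7Cre and at 43.0, 55.0, 46.3, 53.0 and 47.5 CPM in miR-501KO mice. Pax7Cre mouse 2 stood above the other 9 mice and mouse 1 below them, and the log2 fold change was -0.04 (95% interval -0.32 to 0.24). The summed CPM of 10 platelet and megakaryocyte genes, 5 of which had too few counts to be tested, ran from 51.6 to 110 in Pax7Cre and from 74.5 to 90.95 in miR-501KO mice, and it was lowest in Pax7Cre mouse 2, where *Vwf* was highest. In Pax7Cre mice *Pf4* averaged 49.8 CPM of a mean sum of 77.15 CPM, so the sum is largely the level of that gene. The part of platelets in the level of *Vwf* was not tested.

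*Emcn* (chr3:137341067-137432185, plus strand) encodes endomucin, a sialomucin of capillaries and veins. It stood at 60.9, 52.2, 54.4, 37.4 and 53.1 CPM in Pax7Cre and at 48.9, 44.5, 60.6, 44.5 and 49.3 CPM in miR-501KO mice, and Pax7Cre mouse 4 was the low mouse. The log2 fold change was -0.06 (95% interval -0.33 to 0.21). *Egfl7* (chr2:26580014-26593120, plus strand) encodes a matrix protein secreted by endothelial cells, and its introns hold the endothelial microRNA miR-126. It stood at 92.3, 116, 92.3, 74.9 and 85.5 CPM in Pax7Cre and at 81.5, 83.3, 95.4, 89.9 and 78.3 CPM in miR-501KO mice. Every miR-501KO mouse lay between Pax7Cre mice 4 and 2, and the log2 fold change was -0.10 (95% interval -0.33 to 0.13). *Egfl7* shares 264 exon bases with *Gm20532* on the same strand and 64 with *Agpat2* on the other, and the counting of shared bases is not given in the sources used here.

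**Figure D2:**
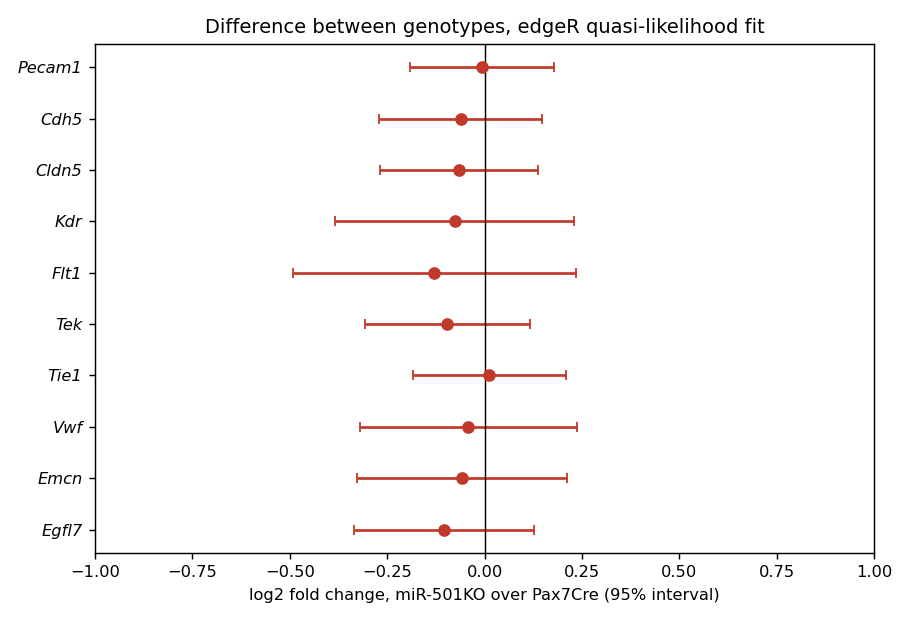
Log2 fold change of each endothelial gene, miR-501KO over Pax7Cre, with its 95% interval from edgeR's quasi-likelihood fit on 5 mice per genotype. Every interval includes 0, and the widest are those of *Flt1* and *Kdr*.

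Per kilobase of exon, the adherens junction gene led. Over all 10 mice *Cdh5* stood at 55.1 ± 5.34 CPM per kilobase of merged exons (SD), followed by *Pecam1* at 34.8 ± 2.56 and *Egfl7* at 24.8 ± 3.20. Each of these lay above the next in all 10 mice. *Cldn5* at 15.9 ± 1.55 and *Tie1* at 14.8 ± 1.37 were neighbours that did not separate, with *Cldn5* above in 7 of 10 mice, and the same held for *Emcn* at 9.35 ± 1.36 and *Kdr* at 9.13 ± 1.61, with *Emcn* above in 6 of 10. *Tek* followed at 7.63 ± 0.869, then *Flt1* at 4.29 ± 0.946 and *Vwf* at 3.09 ± 0.497 CPM per kilobase. The length chosen decided parts of this order. With the longest annotated transcript as the length, *Pecam1* at 62.9 CPM per kilobase stood above *Cdh5* at 58.0 in 8 of 10 mice, *Flt1* at 8.41 above *Tek* at 7.72 in 7 of 10, and *Tie1* at 17.2 above *Cldn5* at 15.9 in 9 of 10, while *Vwf* remained lowest at 5.63.

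Within the receptor families the balance of the genes was also compared as a ratio of counts, which does not depend on the scaling of the libraries. The *Flt1* to *Kdr* count ratio was 0.701, 0.766, 0.734, 0.653 and 0.697 in Pax7Cre and 0.691, 0.650, 0.623, 0.769 and 0.719 in miR-501KO mice. These values overlapped, with a difference in the mean log2 ratio of -0.04 (two-sided exact permutation p = 0.5). The *Tek* to *Tie1* ratio ran from 0.440 to 0.647 in Pax7Cre and from 0.448 to 0.521 in miR-501KO mice, a difference of -0.11 in log2 (exact permutation p = 0.389). The *Pecam1* to *Cdh5* ratio ran from 0.821 to 1.01 and from 0.878 to 1.02, a difference of 0.06 (exact permutation p = 0.476). The ratio of the ligands, *Angpt2* to *Angpt1*, ran from 0.731 to 1.28 in Pax7Cre and from 0.772 to 0.976 in miR-501KO mice, a difference of -0.19 (exact permutation p = 0.254). Single mice moved these differences: *Angpt2* to *Angpt1* stood at -0.31 without Pax7Cre mouse 2 (exact permutation p = 0.0635), at -0.11 without Pax7Cre mouse 1 and at -0.13 without Pax7Cre mouse 4. *Tek* to *Tie1* stood at -0.03 without Pax7Cre mouse 3 and at -0.07 without Pax7Cre mouse 2. With each mouse left out in turn, *Flt1* to *Kdr* ran from -0.08 to -0.01 and *Pecam1* to *Cdh5* from 0.02 to 0.09, and no ratio changed sign. After adjustment over the 4 ratios each exact permutation p was 0.5, and the smallest p that 5 against 5 mice allow is 0.00794.

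The endothelial genes also varied between mice of one genotype. With TMM scaling, in Pax7Cre mouse 2 all 10 genes stood above their mean over the 10 mice, by a median of 0.27 on the log2 scale. In Pax7Cre mouse 4 all 10 stood below it, by a median of -0.22. The summed CPM of the 10 genes was 910.2, 1061, 878, 802.5 and 976 in Pax7Cre and 841, 818.5, 1001, 939 and 862 in miR-501KO mice, so that with TMM scaling the extremes of both genotypes together were Pax7Cre mice. The same 2 mice stood apart in the scaling of their libraries, with a TMM factor of 0.884 for mouse 2 and 1.13 for mouse 4 beside 0.942 to 1.02 for the other 8. On library totals alone, 6 of the 10 genes lay above the mean in mouse 2 (median 0.09) and 7 of 10 below it in mouse 4 (median -0.04), a smaller common shift in both mice. The extremes were then miR-501KO mice: 9 of 10 genes lay above the mean in mouse 3 (median 0.14) and 9 of 10 below it in mouse 2 (median -0.12).

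**Figure D3:**
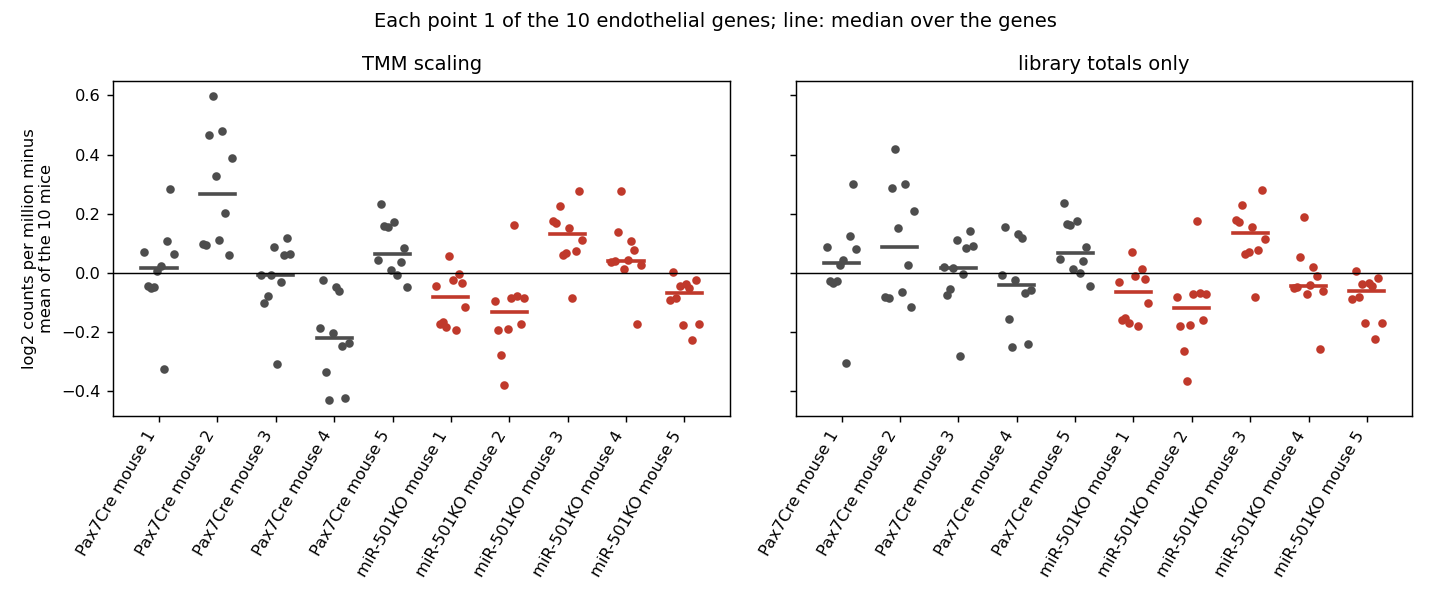
Log2 CPM of each endothelial gene minus its mean over the 10 mice (y axis) for each mouse (x axis), with TMM scaling on the left and library totals alone on the right. Points are the 10 genes, lines their median, Pax7Cre in grey and miR-501KO in red. With TMM scaling all points of Pax7Cre mouse 2 lie above 0 and all of mouse 4 below it, and with library totals both mice spread across 0.

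Muscle fiber genes separated the same mice. The summed CPM of 15 mature fiber genes was 57030 in Pax7Cre mouse 2 and 22360 in Pax7Cre mouse 4, beside 27670 to 43560 in the other 8 mice. The mitochondrial share of counts was 13.98% and 6.59% in these mice, the highest and the lowest of the 10. Macrophage genes (12 genes) summed to 5098 CPM in Pax7Cre mouse 2, the lowest of the mice, and to 6147 CPM in mouse 4, inside the range of the others. Regenerating fiber genes (10 genes) were also lowest in mouse 2, at 6534 CPM beside 6598 to 9052 CPM in the other 9 mice. The part of fiber content and of the scaling in the levels of the endothelial genes was not tested.

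The VEGF receptors moved together across mice under both scalings. Pearson's r between the log2 CPM of *Kdr* and *Flt1* over the 10 mice was 0.954 (permutation p = 7e-05, adjusted over 45 pairs 0.0027) and Spearman's rho was 0.915. Without the 2 mice farthest from the median of *Kdr*, r was 0.976. On library totals alone r was 0.906 (rho 0.939, adjusted permutation p = 0.0189), without Pax7Cre mouse 2 it was 0.917, without mouse 4 it was 0.941, and without both it was 0.879 (adjusted permutation p = 0.047). Without both mice rho was 0.833, and 0 pairs passed by rho. With library totals and without both mice, r was 0.849 and the adjusted permutation p was 0.0700 (8 mice).

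The number of other pairs that passed was lower on library totals alone. With TMM scaling, 44 of the 45 pairs of endothelial genes had r above 0, with a median of 0.567, and 18 pairs passed an adjusted permutation p of 0.05 (12 by rho). These included *Tek* with *Egfl7* (r = 0.898), *Cldn5* with *Egfl7* (r = 0.884) and *Tek* with *Cldn5* (r = 0.882). The median r was 0.594 within Pax7Cre and 0.638 within miR-501KO mice, and 0.559 with the genotype means removed. On library totals alone, 36 of 45 pairs had r above 0, the median was 0.299, and 1 pair passed, *Kdr* with *Flt1*. There r was 0.771 for *Tek* with *Egfl7*, 0.719 for *Cldn5* with *Egfl7* and 0.750 for *Tek* with *Cldn5* (adjusted permutation p = 0.0911, 0.125 and 0.0911). It hardly moved for *Cdh5* with *Tie1* (0.745 with TMM scaling and 0.748 on library totals) and *Pecam1* with *Emcn* (0.816 and 0.788). On library totals without Pax7Cre mice 2 and 4, r for *Cldn5* with *Egfl7* was 0.851. With TMM scaling, *Kdr* with *Flt1* alone passed by r without Pax7Cre mouse 4, while 7 pairs passed without mouse 2 and 3 passed without both. By rho, 4 pairs passed without mouse 4, 1 without mouse 2 and 0 without both. *Vwf* and *Emcn* were the one pair with r below 0 with TMM scaling, at -0.24 (rho -0.35, permutation p = 0.498), and r was -0.67 on library totals alone (adjusted permutation p = 0.199).

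**Figure D4:**
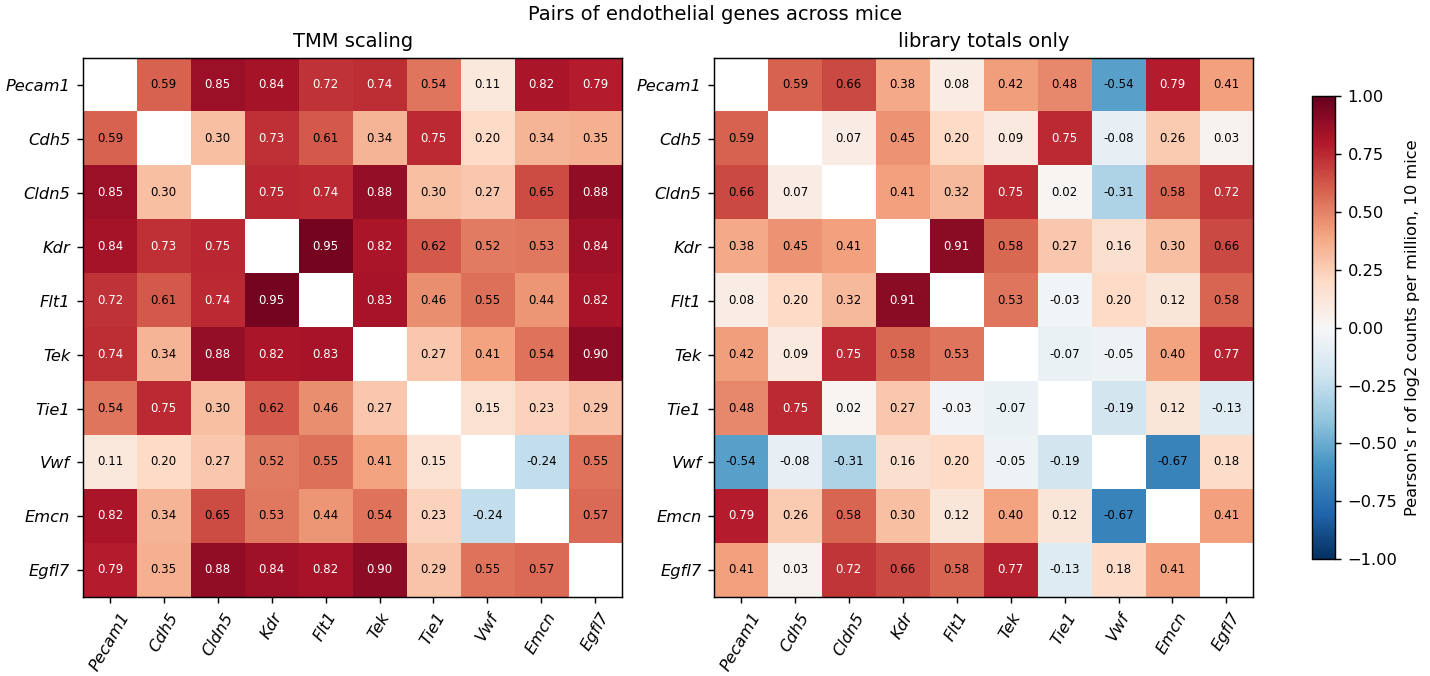
Pearson's r between the log2 CPM of each pair of the 10 endothelial genes over the 10 mice, with TMM scaling on the left and library totals alone on the right. Red is positive and blue negative, on a scale from -1 to 1. *Kdr* with *Flt1* is the darkest cell in both panels, at 0.95 and 0.91, and most other cells are paler on the right.

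The promoters of *Kdr* and *Flt1* are shown because these genes moved together. Each line is the RefSeq window of 250 bases before to 50 bases after the gene start (GRCm38.p6), read on the gene's strand. Kdr is chr5:75978406-75978705 and Flt1 is chr5:147725962-147726261, both on the minus strand. Capitals mark AGGAAG or CGGAAG on either strand, strings that can be bound by ETS factors, a family active in endothelial cells. The shorter GGAA that both strings hold was not marked, and it does occur in the *Kdr* window.
Kdr: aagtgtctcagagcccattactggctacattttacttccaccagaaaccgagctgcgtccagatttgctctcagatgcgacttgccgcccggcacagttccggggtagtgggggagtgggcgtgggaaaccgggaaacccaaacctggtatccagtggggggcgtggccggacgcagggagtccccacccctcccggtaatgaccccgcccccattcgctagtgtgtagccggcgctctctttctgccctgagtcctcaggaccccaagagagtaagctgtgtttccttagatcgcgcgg
Flt1: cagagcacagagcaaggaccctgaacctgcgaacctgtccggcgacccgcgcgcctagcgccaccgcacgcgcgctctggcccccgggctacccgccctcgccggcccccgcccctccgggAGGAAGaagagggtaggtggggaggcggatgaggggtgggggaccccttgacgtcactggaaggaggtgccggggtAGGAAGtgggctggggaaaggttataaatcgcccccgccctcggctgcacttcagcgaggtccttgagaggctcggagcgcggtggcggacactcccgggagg
The *Flt1* window held 2 matches to the marked strings, and neither string was in the *Kdr* window. The windows of *Tie1* and *Emcn* held 3 and 2 matches, the 3 windows of *Egfl7* held 3, 2 and 0, and neither string was in those of *Tek* and *Cldn5*. Of the 9 windows of these genes in the table, for 7 of the 10 genes, 5 held at least one match, beside 46.5% of all 32851 promoter windows. *Pecam1*, *Cdh5* and *Vwf* had no entry.

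Among all other tested genes, ranked with TMM scaling only, *Adgrf5*, an adhesion receptor of endothelial cells, had the pattern most like that of the endothelial genes. Likeness was measured as r with the mean of the 10 standardised log2 CPM profiles over 10 mice, which share their libraries and scaling factors. *Adgrf5* reached r = 0.9751 (rho = 0.988) with TMM scaling, 0.915 on library totals alone and 0.930 without Pax7Cre mice 2 and 4. The next genes were *Stbd1* (r = 0.961), *Zdhhc17* (0.951), *Rapgef3* (0.949) and *Lrrc3b* (0.939), and on library totals alone they stood at 0.870, 0.772, 0.813 and 0.905. None of these 4 genes was in an endothelial list.

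Gene lists of other vessel types and tissues followed the endothelial genes to different degrees. The median r of the list with the same mean profile was 0.757 for 12 capillary genes (11 above 0), 0.537 for 20 other pan-endothelial genes (18 above 0) and 0.188 for 13 arterial genes (9 above 0), beside -0.01 over all genes. It was 0.00 for 9 venous (5 above 0), 0.15 for 7 lymphatic (4), 0.07 for 12 tip cell (7) and -0.05 for 12 mural cell genes (6), and 0.57 for 15 endothelial transcription factors (12), 0.47 for 13 VEGF and angiopoietin genes (9), 0.32 for 10 fibro-adipogenic (8) and 0.06 for 5 red cell genes (3). On library totals alone the capillary, pan-endothelial and arterial medians were 0.443, 0.372 and 0.214, the venous -0.23 (2 of 9 above 0), the lymphatic 0.19, the tip cell 0.13, the mural 0.07, that of the transcription factors 0.26, of the VEGF and angiopoietin genes 0.19, of the fibro-adipogenic genes 0.13 and of the red cell genes -0.17, beside -0.12 over all genes. Mature fiber genes had a median r of 0.747 with TMM scaling, with all 15 above 0. It was 0.233 on library totals alone and -0.10, with 5 of 15 above 0, on library totals without Pax7Cre mice 2 and 4. In that last setting the pan-endothelial median was 0.515 (18 of 20 above 0), the capillary 0.380 (7 of 12) and the arterial 0.352 (10 of 13). The transcription factors stood there at 0.55 (10 of 15), the tip cell genes at 0.40 (10 of 12) and the VEGF and angiopoietin genes at 0.36 (8 of 13). Its mural, lymphatic and fibro-adipogenic medians were 0.23 (8 of 12), 0.20 (4 of 7) and 0.19 (8 of 10). Its venous and red cell medians were -0.30 (2 of 9) and -0.28 (0 of 5), beside 0.01 over all genes. With TMM scaling the lowest medians were those of the regenerating fiber genes, at -0.75 (1 of 10 above 0), the 5 tested platelet genes, at -0.61 (1 of 5), and the macrophage genes, at -0.50 (0 of 12). They were -0.40, -0.44 and -0.32 on library totals alone, and -0.30, -0.37 and -0.18 (4 of 10, 2 of 5 and 2 of 12 above 0) on library totals without Pax7Cre mice 2 and 4. These values describe 10 mice and carry no test.

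The ligands and co-receptors of the same pathways did not pass the test. Of 14 listed genes 13 were tested, *Angpt4* having too few counts, and 0 had an adjusted p under 0.05 in edgeR's test, with 1 at an unadjusted p under 0.05, beside 1.05% of all genes. That gene was *Vegfd*, a ligand of the lymphatic VEGF receptor, at 6.74 ± 0.998 CPM in Pax7Cre and 5.12 ± 1.00 CPM in miR-501KO mice (log2 fold change -0.40, SE 0.16, unadjusted p = 0.0244, adjusted p = 1.00). Its CPM values overlapped, with 2 miR-501KO mice below all Pax7Cre mice, and without miR-501KO mouse 1 or 3 the list held 0 genes at an unadjusted p under 0.05 and 0 at an adjusted p in edgeR's test. *Angpt2*, the angiopoietin released by activated endothelium, was 16.4 ± 2.36 and 14.02 ± 1.03 CPM (log2 fold change -0.22, 95% interval -0.45 to 0.00, unadjusted p = 0.0504 in edgeR's test). *Angpt1*, the TIE2 agonist of mural cells, was 16.3 ± 2.28 and 15.9 ± 1.31 CPM.

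The means of the VEGF ligands other than *Vegfd* differed by less than the SD of the Pax7Cre mice. *Vegfa*, the main ligand of VEGFR2, was 94.1 ± 37.6 CPM in Pax7Cre and 90.3 ± 18.9 CPM in miR-501KO mice, *Vegfb* 45.3 ± 14.2 and 44.4 ± 8.58, *Vegfc* 4.85 ± 0.492 and 5.03 ± 0.691, and *Pgf*, a ligand of VEGFR1, 6.03 ± 1.59 and 6.87 ± 0.803 CPM. The co-receptor *Nrp1* was 123 ± 8.98 and 122 ± 6.76 CPM, with a log2 fold change of -0.01 (95% interval -0.17 to 0.16). *Nrp2* stood at 106 ± 10.9 and 97.8 ± 7.55 CPM. *Flt4*, which encodes VEGFR3, was 15.2 ± 2.01 and 15.9 ± 1.33 CPM. *Ptprb*, a phosphatase that restrains TIE2, was 109 ± 24.2 and 107.5 ± 17.3 CPM. *Svep1*, an extracellular matrix protein, was 107 ± 21.6 and 92.9 ± 19.1 CPM, and *Bmx*, a kinase, 1.19 ± 0.274 and 1.11 ± 0.116 CPM. Over the 13 genes 10 log2 fold changes lay below 0, beside 52.1% of all genes, and the median was -0.03.

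**Figure D5:**
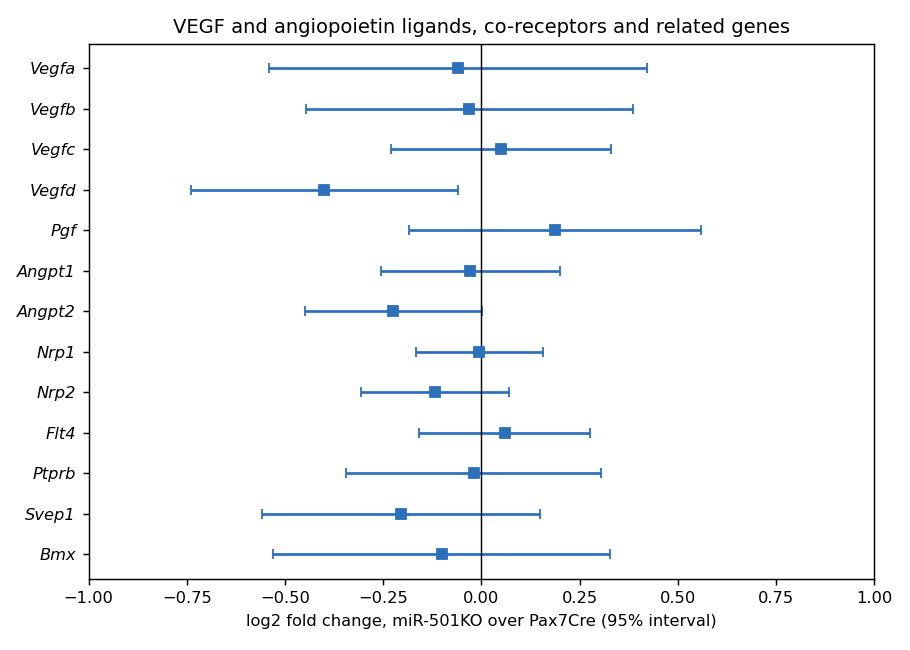
Log2 fold change, miR-501KO over Pax7Cre, of the 13 tested VEGF and angiopoietin ligands, co-receptors and related genes, with 95% intervals from edgeR's quasi-likelihood fit. The interval of *Vegfd* lies below 0, that of *Angpt2* ends at 0.00, and the others include 0.

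Other classes of vessel genes gave 0 genes at an adjusted or unadjusted p under 0.05 in edgeR's test, beside 0% and 1.05% of all genes. This held for 20 other pan-endothelial genes (median log2 fold change -0.02), 15 endothelial transcription factors (-0.06), 12 capillary (-0.06), 13 arterial (-0.10), 9 venous and post-capillary (0.05), 7 tested lymphatic (-0.08) and 12 angiogenic tip cell genes (-0.05), beside -0.00 over all genes. By the rule for named genes, the gene with the highest level and those with the smallest p in each direction are given per list. Among pan-endothelial genes *Cd34*, a surface sialomucin, was 220.4 ± 32.5 CPM in Pax7Cre and 207 ± 15.1 CPM in miR-501KO mice, *S1pr1*, a sphingosine-1-phosphate receptor, 61.3 ± 4.00 and 65.6 ± 2.03, and *Sox18*, a transcription factor, 46.4 ± 2.91 and 40.7 ± 7.37. Among the transcription factors *Epas1*, a hypoxia-inducible factor, was 116 ± 31.0 and 115 ± 14.4 CPM, and *Lyl1* 16.7 ± 3.60 and 17.9 ± 2.05. Every one of these genes overlapped between genotypes, with 3 miR-501KO mice above all Pax7Cre mice in *S1pr1* and 3 below them in *Sox18*. Among capillary genes *Fabp4*, a fatty acid carrier, was 268 ± 59.7 and 243 ± 31.3 CPM, *Aplnr*, the apelin receptor, 103 ± 14.7 and 96.3 ± 7.95, and *Tcf15* 4.81 ± 2.56 and 5.41 ± 1.39. Among arterial genes *Notch1* was 64.9 ± 11.5 and 65.5 ± 4.52 CPM, *Efnb2*, an ephrin ligand, 23.5 ± 1.87 and 24.0 ± 1.72, and *Gja4*, a connexin, 13.1 ± 0.971 and 11.8 ± 0.471. *Gja4* had the smallest p of the arterial list (unadjusted p = 0.0862 in edgeR's test), with 2 miR-501KO mice below all Pax7Cre mice.

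In the venous list *Vcam1*, a leukocyte adhesion receptor, was 82.2 ± 9.96 and 74.1 ± 6.56 CPM (log2 fold change -0.15), with 2 miR-501KO mice below all Pax7Cre mice, and *Selp*, P-selectin, 6.64 ± 1.34 and 8.05 ± 2.26. In the lymphatic list *Pdpn*, podoplanin, was 44.6 ± 6.82 and 41.0 ± 2.24 CPM (log2 fold change -0.12), *Mmrn1* 1.17 ± 1.17 and 2.33 ± 1.51, and *Nts* 0.871 ± 0.199 and 0.694 ± 0.107. In the tip cell list *Col4a1*, a basement membrane collagen, was 1077 ± 111 and 1043 ± 188 CPM, and *Kcne3* 1.09 ± 0.269 and 1.46 ± 0.276. *Kcne3* had a log2 fold change of 0.41 (unadjusted p = 0.0825 in edgeR's test), with 3 miR-501KO mice above all Pax7Cre mice. The genotypes overlapped in each of these genes too.

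Markers of the cells around vessels gave 0 calls as well. Over all genes the shares in edgeR's test were 0% at an adjusted and 1.05% at an unadjusted p under 0.05. Of 12 mural cell genes none passed either threshold in edgeR's test, where *Acta2*, smooth muscle actin, was 591 ± 160.5 and 689.6 ± 92.3 CPM and *Higd1b* 3.58 ± 0.823 and 3.18 ± 0.740 CPM. Of the 5 tested platelet genes none passed either, with *Pf4* at 49.8 ± 17.98 and 52.4 ± 7.35 CPM, *Ppbp* at 0.455 ± 0.295 and 0.744 ± 0.331, and *Itga2b* at 3.68 ± 0.308 and 3.58 ± 0.399. The 5 tested red cell genes all had log2 fold changes above 0 (median 0.75) with none at an unadjusted p under 0.05 in edgeR's test. This rested on 1 library: without miR-501KO mouse 2 the median was 0.02. The globin genes *Hbb-bs* and *Hbb-bt* were 59.1 ± 30.4 and 89.2 ± 67.95 CPM, and 8.02 ± 5.00 and 13.7 ± 11.8 CPM. The red cell list summed to 55.5 to 179.8 CPM in Pax7Cre and 68.7 to 400.5 CPM in miR-501KO mice, and its mean was 105.2 CPM in Pax7Cre, 165 CPM in miR-501KO and 106 CPM in miR-501KO mice without mouse 2. Macrophage (12), fibro-adipogenic progenitor (10), mature fiber (15) and regenerating fiber genes (10) had medians of 0.02, -0.05, 0.05 and 0.03 in log2 fold change, with 0 genes under either threshold in edgeR's test. Their named genes were the macrophage genes *Lyz2* (log2 fold change -0.02), *Cd14* (0.08) and *Mrc1* (-0.22), the fibro-adipogenic genes *Col3a1* (-0.03), *Ly6a* (0.07) and *Pi16* (-0.66), the mature fiber genes *Ckm* (0.13), *Gapdh* (0.18) and *Pgam2* (-0.02), and the regenerating fiber genes *Actc1* (0.18) and *Myl4* (-0.07).

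The spread between mice was larger in Pax7Cre mice for 8 of the 10 endothelial genes, beside 79.2% of all tested genes. The coefficient of variation over the 10 mice had a median of 12.1% in the endothelial genes, from 7.37% in *Pecam1* to 22.04% in *Flt1*, beside 9.85% in the 6614 tested genes within their range of mean CPM. Counts of the 10 genes ran from 443 for *Cldn5* to 6221 for *Cdh5*. At the lowest count of each gene, 443 in *Cldn5* and 4072 in *Cdh5*, counting error alone would give coefficients of variation of 4.75% and 1.57%. The measured values were 9.76% and 9.70%.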

How the data were processed

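Libraries were TruSeq Stranded mRNA, sequenced as 100-base single-end reads. Per the labels and the submitters' processing notes, the authors aligned reads with STAR to GRCm38.p5 and counted them per gene with featureCounts. The deposited values are raw counts per Ensembl gene, 1 file per mouse, and the strand setting and the treatment of multi-mapped reads are not given in the sources used here. Symbols, lengths and coordinates came from GENCODE M21 (GRCm38), which held 25587 of the 25700 listed genes.

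Counts were tested between genotypes with edgeR 4.0.16 (R 4.3.3): TMM scaling, filterByExpr (minimum count 10, minimum total 15), quasi-likelihood test and Benjamini-Hochberg adjustment over 14410 genes, tested on simulated data. DESeq2 1.42.0 was an alternative. Single ratios were tested by exact two-sided permutation and correlations with 100000 permutations. The endothelial genes and lists were chosen with earlier results of these data known. The text names all 10 endothelial genes, the VEGF and angiopoietin list, from each other list the gene with the highest level and the one with the smallest p in each direction, and the 5 genes most like the endothelial mean. Correlations on library totals and without Pax7Cre mice 2 and 4 were added after the data were seen. Samples are labelled as separate mice, and p-values measure the spread between them.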

Additional observations from a re-analysis of the deposited data

Results flagged for a closer look

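In the search for a mouse far from the others of its genotype, 60 sets of 5 mice were examined over the endothelial genes, their ratios and the list sums, of which chance flags about 1 in 20, or 3.0. There were 2 such mice. The summed CPM of 9 venous and post-capillary endothelial genes was 222.3 in miR-501KO mouse 3, beside 207.5 to 210.7 in the other miR-501KO mice. The summed CPM of red cell genes was 400.5 in miR-501KO mouse 2, beside 68.7 to 144 in the other miR-501KO mice, and the endothelial genes of that mouse summed to 818.5 CPM, the lowest of its genotype. No single endothelial gene and no ratio had such a mouse.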

How the results depend on the processing

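The count of 0 endothelial genes at an adjusted or unadjusted p under 0.05 held in edgeR's and DESeq2's tests under all 10 settings of scaling, filter, block and test, and with each mouse left out. *Tie1* had a log2 fold change of -0.00755 on library totals alone. With each mouse left out in turn, log2 fold changes ran from -0.0544 to 0.0155 for *Pecam1*, -0.154 to 0.00951 for *Emcn*, -0.161 to 0.0432 for *Kdr*, -0.236 to 0.0276 for *Flt1*, -0.12 to 0.091 for *Vwf* and -0.0539 to 0.0585 for *Tie1*, and their median over the 10 genes from -0.143 to 0.00112. The others kept their sign, from -0.17 to -0.0119 for *Egfl7*, -0.114 to -0.00781 for *Cdh5*, -0.154 to -0.0216 for *Tek* and -0.131 to -0.02 for *Cldn5*. Correlations moved most: on library totals alone the median r was 0.299 and 1 pair passed, 7 passed without Pax7Cre mouse 2, 1 without mouse 4, 3 without both, and 0 on library totals without both (Benjamini-Hochberg adjusted permutation p, 0 also by rho, and 11 pairs at an unadjusted p under 0.05). By rho, 1 pair passed on library totals alone, 1 without Pax7Cre mouse 2, 4 without mouse 4 and 0 without both. Over all genes, 151 had an unadjusted p under 0.05 in edgeR's test, 312 with no filter, 453 without Pax7Cre mouse 2, 470 without Pax7Cre mouse 4 and 98 without miR-501KO mouse 1. With the mouse number as a replicate block the median log2 fold change of the endothelial genes was -0.06 and 189 genes had an unadjusted p under 0.05. The numbers were not taken to pair the mice, and whether they do was not settled. Same-number correlations ran from -0.30 to 0.34, with 3 of 5 over 0.1, while 5 of 10 mice matched their own number best. With the numbers as pairs, sign-flip p-values of the 4 ratios ran from 0.1875 for *Pecam1* to *Cdh5* to 0.6875 for *Flt1* to *Kdr*. The smallest sign-flip p that 5 pairs allow is 0.0625. Of the tested genes named from the other lists, 19 of 49 changed sign under some setting, as did 11 of 15 list medians. Low counts limit the platelet list: 5 of its genes were not tested, and 5 were under 1 CPM in all mice.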
